A study of Homo sapiens with 21 samples.

Results

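The genes described are 10 components, inhibitors and targets of the JAK-STAT3 pathway: IL6R, IL6ST, JAK1, JAK2, STAT3, STAT5A, SOCS1, SOCS2, SOCS3 and PIM1. They were found by matching the Ensembl identifiers of the count table, with the version removed, to these symbols, and all 10 had a row among the 42339 genes listed. Each of the 10 passed the filter on low counts in every comparison. The libraries came from BT-549 cells, a human triple-negative breast cancer (TNBC) line, sequenced as bulk mRNA, and comprised 7 groups of 3 cultures. The groups were wild-type 2D monolayers in serum; wild-type 3D mammospheres at passage 6 in serum-free medium without attachment; the same mammospheres with 0.75 μmol/L GO-203, a peptide inhibitor of the MUC1-C subunit; tet-MUC1shRNA mammospheres at passage 6 with 0.1% DMSO as vehicle or 500 ng/ml doxycycline (DOX); and tet-MYCshRNA mammospheres at passage 8 with the same vehicle or DOX. Each tet line carried 1 hairpin in a doxycycline-inducible vector and was selected with puromycin as a transduced population. DOX-treated cells with a control hairpin were not used here, so an effect of DOX itself cannot be told apart from that of the hairpin, and exposure times, which the study's text gives for DOX in the tet-MUC1shRNA line, are not in the labels.

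Cytokines of the IL-6 family bind a private receptor chain and then gp130, the shared signalling chain encoded by IL6ST. JAK kinases bound to gp130 phosphorylate it and STAT3, which dimerizes, enters the nucleus and binds DNA. STAT3 induces SOCS3, which binds gp130 and the JAKs and closes a negative feedback loop, and it also induces PIM1, a serine/threonine kinase that favours survival. In breast cancer the pathway is best known for STAT3 activity in cells with stem-like properties, and MUC1-C is known to bind STAT3. Activity of the pathway depends on phosphorylation, and the values below are mRNA levels only.

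The STAT5A promoter is shown because STAT dimers bind palindromic sites made of TTC and GAA, and it held the only such letters found among the members' promoter windows used here. It is written 5′ to 3′ on the gene's strand (GRCh38, RefSeq) and ends at the base before the annotated start. Capitals mark TTC, GAA and the 4 bases between them.
STAT5A, chr17:42287189-42287438, plus strand: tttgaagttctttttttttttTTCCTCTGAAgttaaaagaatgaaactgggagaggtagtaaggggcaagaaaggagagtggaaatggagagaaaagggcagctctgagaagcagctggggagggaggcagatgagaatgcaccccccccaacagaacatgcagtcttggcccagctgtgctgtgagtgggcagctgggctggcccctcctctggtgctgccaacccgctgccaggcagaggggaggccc
RefSeq's 300-base windows, from 250 bases before to 50 after a start, covered 9 members with 17 starts, and SOCS2 had no window. TTC and GAA with 4 free bases between them occurred in 1 of the 17, the window printed above, where the match began 229 bases before the start, against 6.44% of 35116 windows. TTCNNNGAA, with 3 free bases, was in none of the member windows and in 7.66% of all. The E-box CACGTG bound by MYC was in none of them and in 7.26% of all. The motifs read the same on both strands. A match is a description of letters and not a bound site, and no match says only that these letters are not in these windows. For SOCS3, on the minus strand, the annotation used for gene positions puts the start at 78360077. Its windows, chr17:78360876-78361175 and chr17:78359618-78359917, do not hold the bases just before that start. Those bases were not searched, so whether they hold STAT-type letters was not tested.

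Library totals were 38026597 to 99751717 counts. MUC1 transcripts fell with DOX in tet-MUC1shRNA mammospheres by 2.06 on the log2 scale (SE 0.074, adjusted p = 3.0e-15), and MYC transcripts fell with DOX in tet-MYCshRNA mammospheres by 0.62 (SE 0.080, adjusted p = 9.1e-05). In the tet-MYCshRNA line, MUC1 was 2.39-fold higher with DOX. MYC was 1.19-fold higher on MUC1 silencing. The line's markers were checked: ESR1 and PGR were at most 1.49 and 0.071 CPM in any library, ERBB2 was between 18.2 and 42.3 CPM, and the epithelial genes EPCAM, CDH1, KRT8, KRT18 and KRT19 summed to at most 2.77 CPM. Of the mesenchymal genes, VIM was between 1067 and 2507 CPM and ZEB1 between 90.05 and 334 CPM, while FN1 ranged from 452 to 13535 CPM and CDH2 from 11.1 to 466 CPM. The summed leukocyte markers PTPRC, CD3E, CD14, ITGAM and LYZ did not exceed 1.67 CPM in any library. Levels are CPM, a gene's counts relative to its library's total, scaled by TMM factors over the 21 libraries. Changes are log2 fold changes with standard errors (SE) from edgeR's quasi-likelihood test, and adjusted p is Benjamini-Hochberg over all genes tested. A gene is said to change where its adjusted p is below 0.1. The labels do not say whether the cultures were grown independently, so p-values measure the spread between these cultures of 1 line. In bulk RNA, fewer cells of a type and less RNA per cell cannot be told apart.

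Measured per kilobase of exon, so that genes could be set side by side, the shared receptor chain and the kinase JAK1 were the most abundant members. IL6ST had group means of 43.9 to 70.2 CPM per kilobase and JAK1 had 32.3 to 55.0. STAT3 followed at 15.3 to 26.6 CPM per kilobase. SOCS3 ranged from 4.71 to 16.1, PIM1 from 3.62 to 20.4 and JAK2 from 1.802 to 7.17 CPM per kilobase. IL6R, SOCS2 and SOCS1 stayed at or below 1.76, and STAT5A was lowest at 0.035 to 0.15 CPM per kilobase. STAT5A rested on 10 to 70 counts per library and SOCS1 on 22 to 106, so their counting error was the largest of the members. The abundant members varied least between groups. The highest group mean was 1.60 times the lowest for IL6ST, 1.70 times for JAK1 and 1.74 times for STAT3, against 6.83 times for IL6R and 5.64 times for PIM1. Reads shared with other genes may touch some values: 4.9% of JAK1's exon bases are also exon of LINC01359 on the same strand, and 6.6% of IL6ST's, 6.5% of STAT5A's and 4.3% of SOCS2's are exon of a gene on the opposite strand. The strand setting of the counting is not given in the sources used here. Processed copies named as pseudogenes exist for IL6R, IL6ST and SOCS2.

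**Figure D1:**
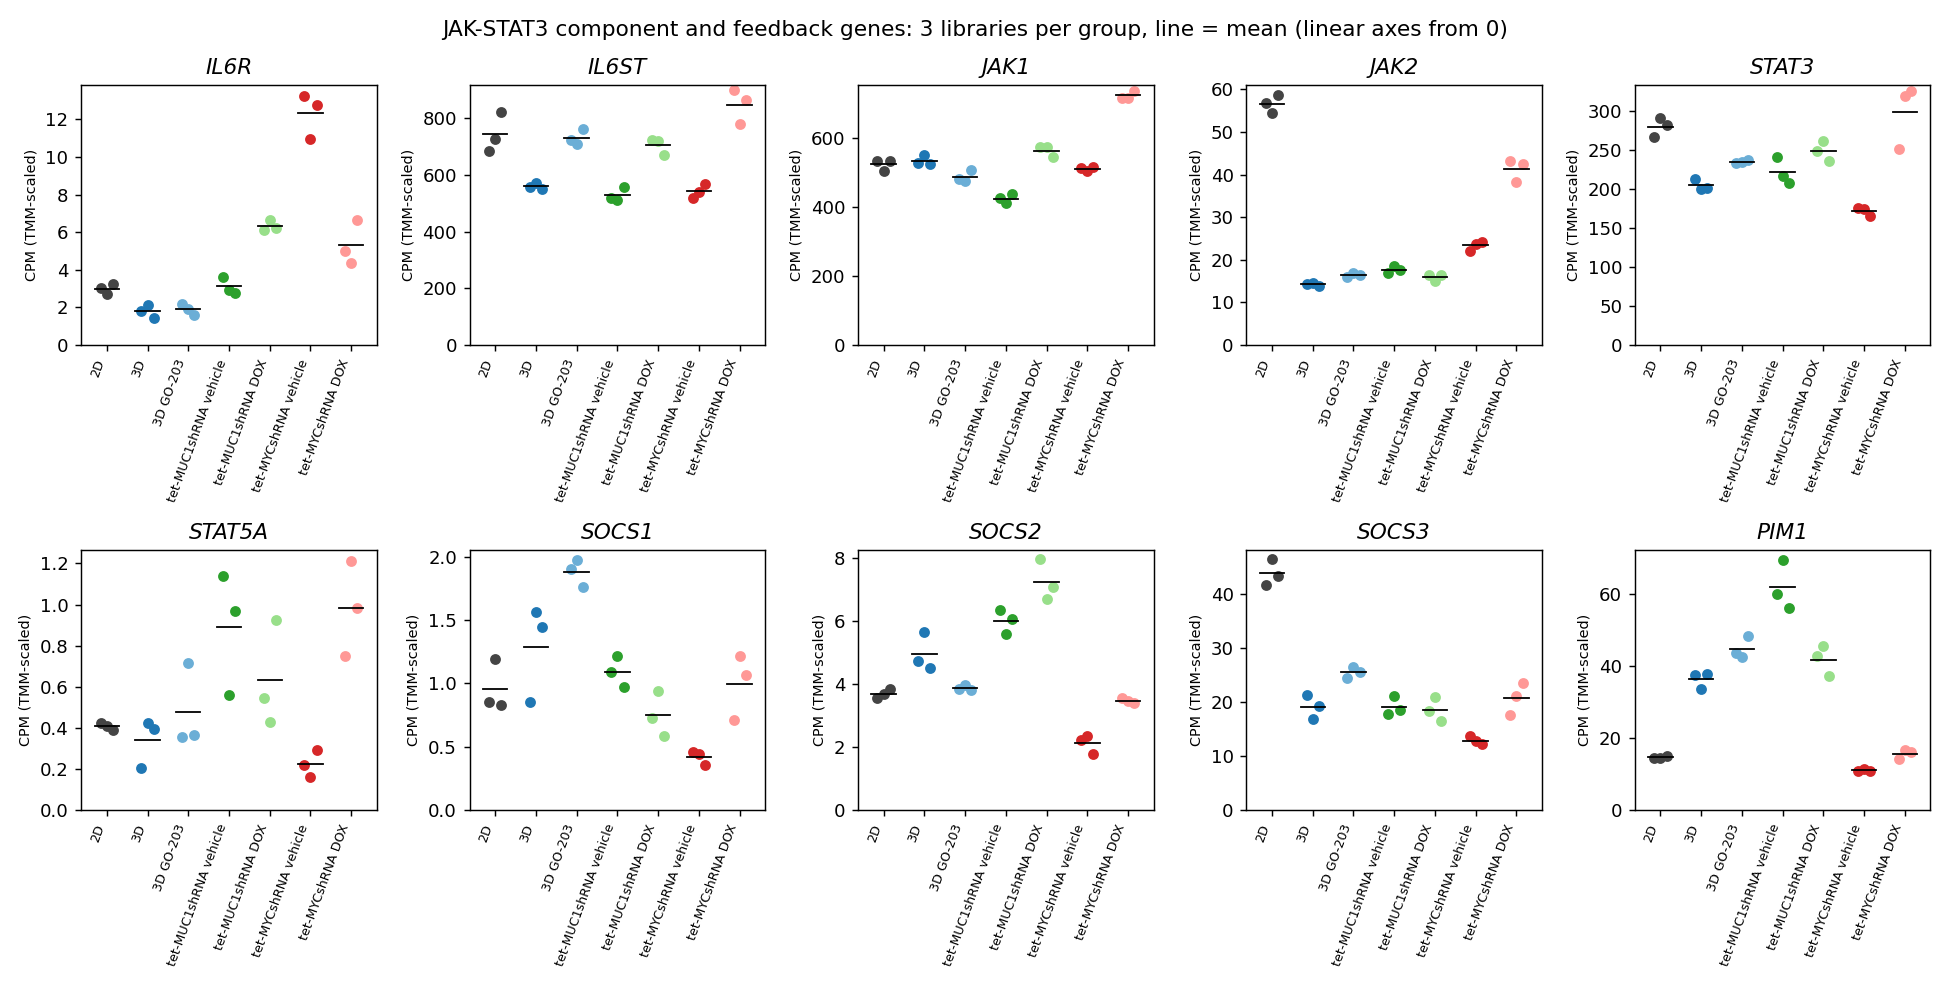
Level of each of the 10 genes in CPM (linear axes from 0), with 3 libraries per group as points and the group mean as a line. JAK2 and SOCS3 were highest in 2D cells, at 56.7 and 43.9 CPM on average, IL6R was highest in tet-MYCshRNA vehicle mammospheres (12.3 CPM) and PIM1 in tet-MUC1shRNA vehicle mammospheres (61.9 CPM).

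The 4 comparisons moved the members in different ways. In 3D vs 2D cells, 2 of 10 members were higher and 5 lower, where 32.0% of all 19190 genes tested were higher and 31.7% lower. On MUC1 silencing, 5 were higher and 2 lower, against 30.7% and 31.6% of 19220 genes. With GO-203, 5 were higher and none lower by edgeR's test (2 at an unadjusted p below 0.05 and 2 by DESeq2), against 11.1% and 12.9% of 18488 genes. SOCS2 and JAK1, the members with negative GO-203 values, had adjusted p = 0.119 and 0.136, and DESeq2 called both lower (adjusted p = 0.0992 and 0.063). On MYC silencing, 9 were higher and 1 lower, against 30.3% and 28.1% of 19951 genes. The median log2 fold change of the members was -0.27, 0.052, 0.27 and 0.68 in these comparisons, beside -0.0074, 0.024, 0.015 and 0.0088 over all genes tested. Large changes, with an absolute log2 fold change above 1.5 as well, were JAK2 in 3D vs 2D cells and STAT5A on MYC silencing. They made up 1, 0, 0 and 1 of the 10 members, against 16.2%, 8.82%, 0.757% and 10.5% of all genes. The comparisons of 3D with 2D cells and of GO-203 with 3D cells share the 3D libraries, so opposite signs in them are not independent.

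**Figure D2:**
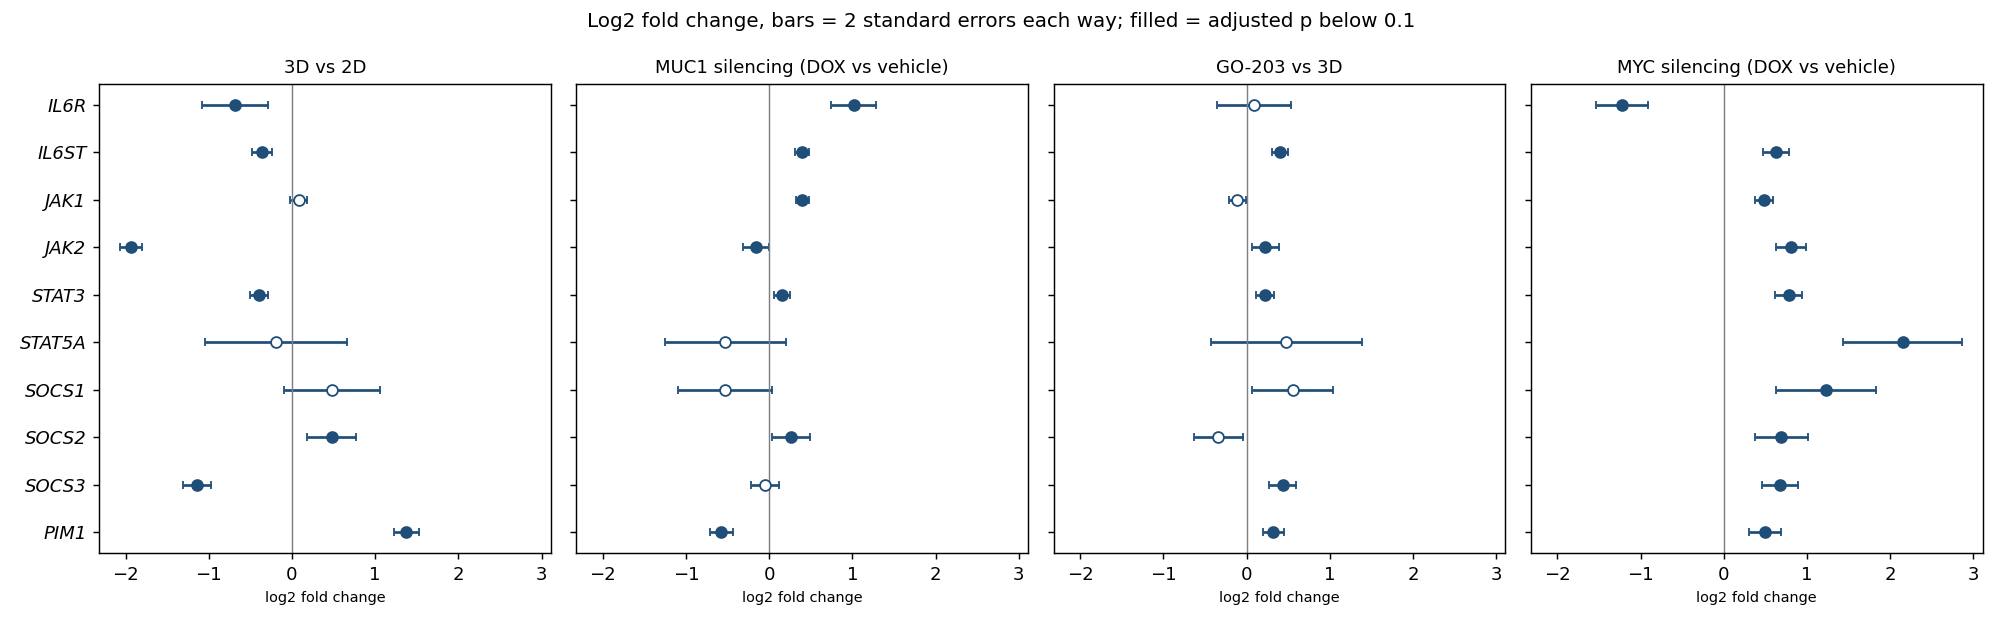
Log2 fold change (horizontal axis) of each gene in the 4 comparisons; bars reach 2 standard errors each way, and filled points have an adjusted p below 0.1. On MYC silencing all genes but IL6R lie to the right of 0, while in 3D vs 2D cells the values run from -1.94 for JAK2 to 1.37 for PIM1.

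Both receptor chains were lower in 3D than in 2D cells and higher on MUC1 silencing, and on MYC silencing IL6R was lower and IL6ST higher. IL6R encodes the chain that binds IL-6 itself and IL6ST the chain that signals. IL6R was at 3.03, 2.72 and 3.23 CPM in 2D cells and 1.83, 2.14 and 1.45 CPM in 3D cells. The groups did not overlap, and IL6R was 1.60-fold lower in 3D cells (log2 -0.68, SE 0.20, adjusted p = 0.0075). On MUC1 silencing it rose from 3.63, 2.94 and 2.79 CPM with vehicle to 6.13, 6.62 and 6.22 CPM with DOX. Every DOX library was above every vehicle library, a 2.02-fold increase (log2 1.02, SE 0.13, adjusted p = 1.6e-06). In tet-MYCshRNA mammospheres the vehicle libraries had 13.2, 10.9 and 12.8 CPM and the DOX libraries 5.00, 4.37 and 6.64 CPM. The groups again did not overlap but the change had the other sign, 2.33-fold lower (log2 -1.22, SE 0.16, adjusted p = 8.3e-05). With GO-203, IL6R was at 2.17, 1.90 and 1.63 CPM, overlapping with the 3D libraries (log2 0.091, 2 SE from -0.35 to 0.53, adjusted p = 0.83). The order of the group means was 3D, 3D GO-203, 2D, tet-MUC1shRNA vehicle, tet-MYCshRNA DOX, tet-MUC1shRNA DOX and tet-MYCshRNA vehicle. The libraries of 3D and 3D GO-203 overlapped, as did those of 2D and tet-MUC1shRNA vehicle and those of the silenced lines.

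IL6ST was at 686, 725 and 823 CPM in 2D cells and 556, 573 and 552 CPM in 3D cells. It was 1.28-fold lower in 3D cells without overlap (log2 -0.35, SE 0.060, adjusted p = 8.5e-05). In the other comparisons it was higher in every treated library. GO-203 libraries had 722, 709 and 762 CPM, 1.32-fold above 3D cells (log2 0.40, SE 0.049, adjusted p = 2.8e-06). MUC1 silencing took it from 519, 513 and 558 CPM to 724, 719 and 669 CPM, also 1.32-fold (log2 0.40, SE 0.042, adjusted p = 5.9e-08). MYC silencing took it from 518, 539 and 569 CPM to 898, 781 and 863 CPM, 1.55-fold (log2 0.63, SE 0.077, adjusted p = 6.0e-05). The vehicle groups and 3D cells formed the low end of the order, from 529.9 to 560.1 CPM with overlapping neighbours, and were separated from the silenced, GO-203 and 2D groups at 704 to 847 CPM.

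Of the JAK kinases among the 10 members, JAK2 changed more than JAK1 in 3D vs 2D cells. Both bind gp130 and phosphorylate STAT factors, and JAK2 also serves the receptors for erythropoietin and growth hormone. JAK2 was at 56.7, 54.5 and 58.8 CPM in 2D cells and 14.3, 14.5 and 13.9 CPM in 3D cells. No library came near the other group, and JAK2 was 3.83-fold lower in 3D cells (log2 -1.94, SE 0.067, adjusted p = 3.2e-13). MYC silencing raised it from 22.1, 23.8 and 24.3 CPM to 43.3, 38.2 and 42.4 CPM. This 1.75-fold increase (log2 0.80, SE 0.090, adjusted p = 3.2e-05) left the silenced libraries below those of 2D cells. JAK2 was at 16.9, 18.6 and 17.6 CPM in tet-MUC1shRNA vehicle libraries and 16.4, 15.1 and 16.4 CPM with DOX, 1.12-fold lower (log2 -0.16, SE 0.078, adjusted p = 0.084). It was at 15.9, 17.0 and 16.5 CPM with GO-203, 1.17-fold higher than in 3D cells (log2 0.23, SE 0.082, adjusted p = 0.061). The groups did not overlap in either, but both calls were fragile. That on MUC1 silencing was lost without vehicle replicate 2 or 3 or DOX replicate 1 or 2 (adjusted p = 0.137 to 0.353), with DESeq2 (0.119) and with either other low-count filter (0.15 and 0.231), and library size alone turned its sign (log2 0.0050, adjusted p = 0.961). That with GO-203 was lost without 3D replicate 1 or 3 or any of the 3 GO-203 replicates (adjusted p = 0.122 to 0.153), and without the low-count filter (0.148).

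JAK1 was at 534, 506 and 534 CPM in 2D cells and 528, 552 and 525 CPM in 3D cells, and the groups overlapped (log2 0.082, 2 SE from -0.022 to 0.19, adjusted p = 0.191). It rose on silencing of either target. On MUC1 silencing it went from 426, 411 and 439.5 CPM to 575, 575 and 545 CPM, 1.32-fold higher (log2 0.40, SE 0.040, adjusted p = 2.9e-08). On MYC silencing it went from 514, 506 and 517 CPM to 718, 717 and 739 CPM, 1.40-fold higher (log2 0.49, SE 0.055, adjusted p = 3.5e-05). In both lines the DOX libraries were all above the vehicle libraries. With GO-203, JAK1 was at 481, 476 and 509 CPM, each below every 3D library, but the adjusted p was 0.136 (log2 -0.11, 2 SE from -0.21 to -0.011), or 0.0991 without GO-203 replicate 3. The tet-MYCshRNA DOX libraries stood above those of every other group.

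STAT3, the transcription factor of the pathway, was lower in 3D cells and higher under each treatment. It was at 266, 290.3 and 282 CPM in 2D cells and 212, 200.1 and 201 CPM in 3D cells. The groups were separate and STAT3 was 1.32-fold lower in 3D cells (log2 -0.40, SE 0.054, adjusted p = 9.2e-06). With GO-203 it was at 233, 235 and 236 CPM, 1.16-fold above 3D cells (log2 0.22, SE 0.054, adjusted p = 0.0065). MYC silencing took it from 176, 175 and 165 CPM to 251, 319 and 325 CPM. Every silenced library was above every vehicle library, a 1.72-fold increase (log2 0.78, SE 0.082, adjusted p = 2.1e-05). On MUC1 silencing STAT3 went from 241, 217 and 208 CPM to 248, 261 and 236 CPM, where the lowest DOX library lay below the highest vehicle library (log2 0.15, SE 0.049, adjusted p = 0.011). That call was lost when all 21 libraries were fitted together (adjusted p = 0.12). In the order of group means, tet-MYCshRNA vehicle was lowest and separate from 3D. The groups from 3D through tet-MUC1shRNA vehicle and 3D GO-203 to tet-MUC1shRNA DOX overlapped with their neighbours, and 2D overlapped with tet-MYCshRNA DOX at the top.

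STAT5A, which prolactin and other cytokine receptors activate in mammary cells, was near the limit of detection. Its levels were 0.424, 0.409 and 0.388 CPM in 2D cells and 0.203, 0.423 and 0.392 CPM in 3D cells, with overlap. Only MYC silencing changed it at the threshold. The tet-MYCshRNA vehicle libraries had 0.216, 0.160 and 0.291 CPM (16, 16 and 18 counts) and the DOX libraries 0.752, 1.21 and 0.985 CPM (38, 70 and 61 counts). The groups were separate, and the fitted increase was 4.43-fold (log2 2.15, SE 0.36, adjusted p = 5.2e-04). The other fitted STAT5A values had wide limits at 2 SE: -1.05 to 0.66 in 3D vs 2D cells, -1.25 to 0.20 on MUC1 silencing and -0.43 to 1.39 with GO-203. On MUC1 silencing, STAT5A passed the threshold as lower without vehicle replicate 2 or DOX replicate 3 (adjusted p = 0.0931 and 0.0567). All neighbours in the order of STAT5A group means overlapped.

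All 3 SOCS inhibitors among the members were higher on MYC silencing, and their calls in the other comparisons are given gene by gene. SOCS3, the inhibitor of gp130 signalling, was at 41.7, 46.6 and 43.5 CPM in 2D cells and 21.3, 16.9 and 19.3 CPM in 3D cells. All 3D libraries were far below the 2D libraries, and SOCS3 was 2.21-fold lower (log2 -1.14, SE 0.083, adjusted p = 4.6e-09). With GO-203 it was at 24.6, 26.5 and 25.6 CPM. These libraries lay above 3D and below 2D cells, and the increase over 3D was 1.35-fold (log2 0.43, SE 0.081, adjusted p = 5.1e-04). MYC silencing took SOCS3 from 13.7, 12.7 and 12.2 CPM to 17.7, 21.2 and 23.5 CPM, 1.60-fold higher without overlap (log2 0.67, SE 0.11, adjusted p = 4.1e-04). On MUC1 silencing the vehicle libraries had 17.7, 21.1 and 18.5 CPM and the DOX libraries 18.3, 20.9 and 16.4 CPM. These ranges overlapped almost wholly (log2 -0.051, 2 SE from -0.22 to 0.12, adjusted p = 0.635), and the sign turned with library size scaling.

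SOCS2, best known for restraining growth hormone signalling through STAT5, had a different order, with the tet-MUC1shRNA groups highest. It was at 3.57, 3.67 and 3.85 CPM in 2D cells and 4.73, 5.64 and 4.51 CPM in 3D cells, 1.39-fold higher without overlap (log2 0.48, SE 0.15, adjusted p = 0.011). MYC silencing took it from 2.23, 2.36 and 1.78 CPM to 3.56, 3.47 and 3.39 CPM, 1.62-fold higher (log2 0.69, SE 0.16, adjusted p = 0.0044). Both pairs of groups were separate. MUC1 silencing took it from 6.35, 5.60 and 6.06 CPM to 7.96, 6.69 and 7.07 CPM, 1.20-fold higher (log2 0.26, SE 0.11, adjusted p = 0.057). That call was lost without vehicle replicate 2 (adjusted p = 0.194) or DOX replicate 1 (0.198), and separately in the fit of all 21 libraries (0.126) and without the low-count filter (0.109). With GO-203, SOCS2 was at 3.84, 3.97 and 3.80 CPM, below each 3D library (log2 -0.34, 2 SE from -0.63 to -0.046, adjusted p = 0.119), and it passed the threshold without 3D replicate 3 (adjusted p = 0.0806).

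SOCS1, a direct inhibitor of JAK kinases that interferons induce, was near 1 CPM. The tet-MYCshRNA vehicle libraries were lowest at 0.460, 0.440 and 0.355 CPM and rose with DOX to 0.712, 1.21 and 1.07 CPM. These groups were separate and the increase was 2.35-fold (log2 1.23, SE 0.30, adjusted p = 0.0057). The GO-203 libraries were highest at 1.90, 1.97 and 1.76 CPM, each above the 3D libraries at 0.853, 1.56 and 1.45 CPM. The adjusted p for that difference was 0.125 (log2 0.55, 2 SE from 0.069 to 1.04), or 0.0831 without 3D replicate 2. The 2D libraries had 0.848, 1.19 and 0.829 CPM and overlapped with 3D (log2 0.48, 2 SE from -0.092 to 1.06, adjusted p = 0.165). Without 3D replicate 1, the lowest 3D library, SOCS1 was higher in 3D cells (log2 0.73, adjusted p = 0.0397), and likewise without 2D replicate 2 (0.69, adjusted p = 0.0995). On MUC1 silencing it went from 1.09, 1.21 and 0.968 CPM to 0.725, 0.938 and 0.586 CPM, without overlap but with an adjusted p of 0.115 (log2 -0.53, 2 SE from -1.09 to 0.029). Without DOX replicate 2 that adjusted p was 0.073.

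PIM1, the kinase that STAT3 and STAT5 induce, had the largest rise of the members in 3D vs 2D cells. It went from 14.5, 14.4 and 14.9 CPM in 2D cells to 37.6, 33.6 and 37.8 CPM in 3D cells. The groups were wide apart, with PIM1 2.59-fold higher in 3D cells (log2 1.37, SE 0.076, adjusted p = 1.4e-10). GO-203 libraries had 43.6, 42.6 and 48.4 CPM, 1.25-fold above 3D (log2 0.32, SE 0.064, adjusted p = 8.8e-04). MUC1 silencing took PIM1 from 60.0, 69.5 and 56.3 CPM to 42.9, 45.5 and 37.2 CPM. Every DOX library was below every vehicle library, 1.49-fold lower (log2 -0.57, SE 0.071, adjusted p = 6.1e-07), and still above the 2D libraries. MYC silencing took it from 10.95, 11.3 and 10.7 CPM to 14.3, 16.5 and 16.2 CPM, 1.41-fold higher without overlap (log2 0.50, SE 0.096, adjusted p = 0.0014). The tet-MYCshRNA line was thus at the 2D level with DOX, where its libraries overlapped with those of 2D cells, and below 2D with vehicle. PIM1 and STAT3 did not share an order: STAT3 was lower and PIM1 higher in 3D than in 2D cells.

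Mammospheres of the vehicle-treated tet lines were also set against 2D cells, with each comparison's values given side by side. The 2D libraries are shared with the comparison of 3D cells, so agreement between these comparisons is not independent. IL6ST, JAK2, STAT3 and SOCS3, lower in 3D cells, were also lower here. Their log2 fold changes against 2D with tet-MUC1shRNA vehicle were -0.45 for IL6ST, -1.64 for JAK2, -0.29 for STAT3 and -1.16 for SOCS3. With tet-MYCshRNA vehicle they were -0.43, -1.25, -0.68 and -1.75. In tet-MUC1shRNA vehicle mammospheres 3 members were higher and 5 lower, where 36.1% of genes tested were higher and 37.8% lower. In tet-MYCshRNA vehicle mammospheres 1 was higher and 8 lower, against 33.8% and 32.4%.

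Of the remaining members, PIM1 was higher with tet-MUC1shRNA vehicle (log2 2.13, adjusted p = 6.8e-13) and lower with tet-MYCshRNA vehicle (-0.39, adjusted p = 9.6e-04). SOCS2 was likewise higher with the first (0.74, adjusted p = 1.0e-04) and lower with the second (-0.77, adjusted p = 6.0e-04). IL6R was higher with tet-MYCshRNA vehicle (2.06, adjusted p = 4.1e-09) and near 2D with tet-MUC1shRNA vehicle (0.094, adjusted p = 0.637), where 3D cells had been lower. SOCS1 was lower with tet-MYCshRNA vehicle (-1.16, adjusted p = 0.003), and its value with tet-MUC1shRNA vehicle was 0.22 (adjusted p = 0.47). STAT5A was higher with tet-MUC1shRNA vehicle (1.16, adjusted p = 0.007) and lower with tet-MYCshRNA vehicle (-0.87, adjusted p = 0.0776). JAK1 was lower with tet-MUC1shRNA vehicle (-0.26, adjusted p = 2.4e-04), and its value with tet-MYCshRNA vehicle was -0.012 (adjusted p = 0.849). The line, the hairpin vector, passage 8 in place of 6 and the vehicle cannot be told apart in these differences.

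**Figure D3:**
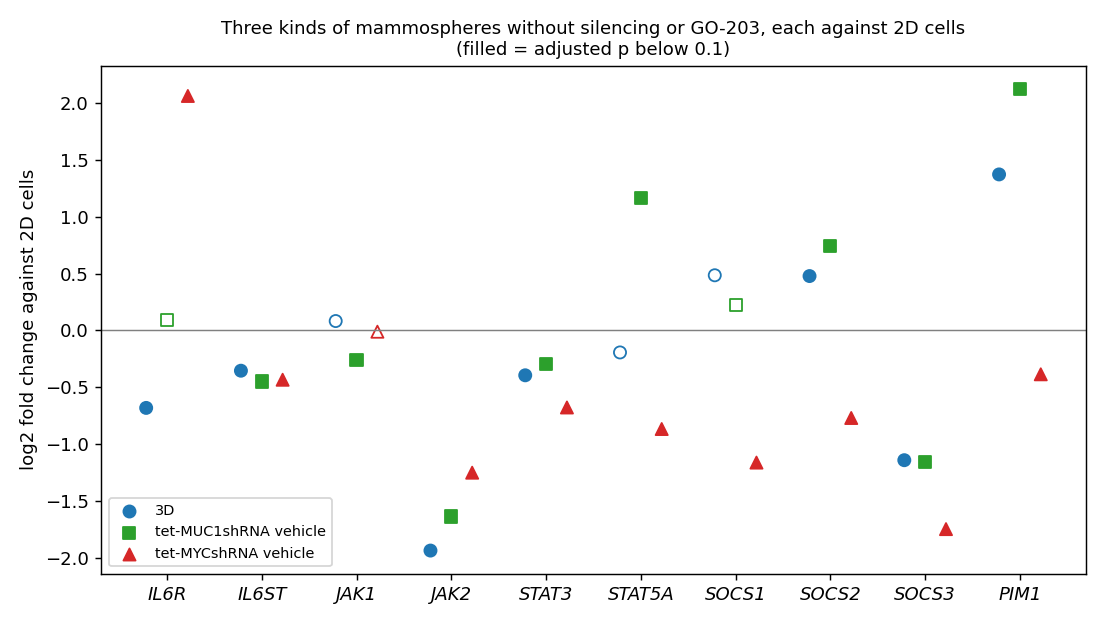
Log2 fold change against 2D cells (vertical axis) for 3D, tet-MUC1shRNA vehicle and tet-MYCshRNA vehicle mammospheres; filled symbols have an adjusted p below 0.1. The 3 comparisons share the 2D libraries. JAK2 runs from -1.94 to -1.25, whereas IL6R runs from -0.68 to 2.06 and PIM1 from -0.39 to 2.13.

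The effects of silencing MUC1 and silencing MYC were compared by a test of their difference over the 12 tet-line libraries. The difference passed the threshold for 9 of the 10 members, where 52.9% of 21585 genes did. IL6R changed in opposite directions, higher on MUC1 silencing and lower on MYC silencing, with a difference of 2.22 (SE 0.21, adjusted p = 7.5e-08). PIM1 also changed in opposite directions, lower on MUC1 silencing, by a difference of -1.08 (SE 0.12, adjusted p = 1.0e-06), and JAK2 likewise with -0.98 (SE 0.12, adjusted p = 1.6e-06), though its fall on MUC1 silencing was the fragile call given above, whose sign library size alone turned. STAT3 and IL6ST rose in both and rose more on MYC silencing (differences -0.64, SE 0.11, adjusted p = 6.5e-05, and -0.24, SE 0.087, adjusted p = 0.029). SOCS2 rose in both as well, with a difference of -0.44 (SE 0.19, adjusted p = 0.060) that was lost on leaving out tet-MUC1shRNA vehicle replicate 1 or 3, DOX replicate 2 or tet-MYCshRNA vehicle replicate 3 (adjusted p = 0.103 to 0.148). The IL6ST and SOCS2 differences were also lost with library size alone or without the low-count filter, and that of IL6ST with a minimum of 10 counts in every library. SOCS3, SOCS1 and STAT5A, which MYC silencing raised, differed by -0.74, -1.78 and -2.69 (adjusted p = 4.7e-04, 0.0011 and 4.2e-04). For JAK1 the difference was -0.10 (2 SE from -0.23 to 0.029, adjusted p = 0.223). The fall of MYC mRNA under its hairpin was 0.62 where that of MUC1 was 2.06, and line and passage differ with the target, so the difference cannot be told apart from them.

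MUC1 silencing and GO-203, which target the same protein at the level of mRNA and of the MUC1-C subunit, were compared in the same way over 12 libraries. The difference passed the threshold for 7 of the 10 members, where 44.9% of 20829 genes did. PIM1 was lower on MUC1 silencing and higher with GO-203 (difference -0.89, SE 0.11, adjusted p = 1.3e-07). JAK2 showed the same pattern (-0.38, SE 0.11, adjusted p = 0.005), with both of its single calls fragile and the difference lost with library size alone (adjusted p = 0.108). JAK1, IL6R and SOCS2 were higher on MUC1 silencing and were not called with GO-203 by edgeR's test, while DESeq2 called JAK1 and SOCS2 lower with GO-203 (as given above), as did the edgeR fit of all 21 libraries (adjusted p = 0.0572 and 0.0577). The 3 differences were 0.51, 0.93 and 0.60 (adjusted p = 1.7e-07, 0.0033 and 0.0076). SOCS3 rose with GO-203 and not detectably on MUC1 silencing (difference -0.48, SE 0.12, adjusted p = 0.0025). SOCS1 had a difference of -1.08 (SE 0.36, adjusted p = 0.020). IL6ST had a difference of 5.2e-04 (2 SE from -0.13 to 0.13), which passed the threshold with library size alone (0.16, adjusted p = 0.0306), a scaling that moved the median of all genes by 0.15. STAT3 differed by -0.061 (2 SE from -0.21 to 0.084). STAT5A had a difference of -0.99 (2 SE from -2.18 to 0.20, adjusted p = 0.204), and it passed the threshold without tet-MUC1shRNA DOX replicate 3 (adjusted p = 0.0861). MUC1 mRNA was 1.26-fold higher with GO-203. Line, vehicle and agent differ between these effects and cannot be told apart.

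**Figure D4:**
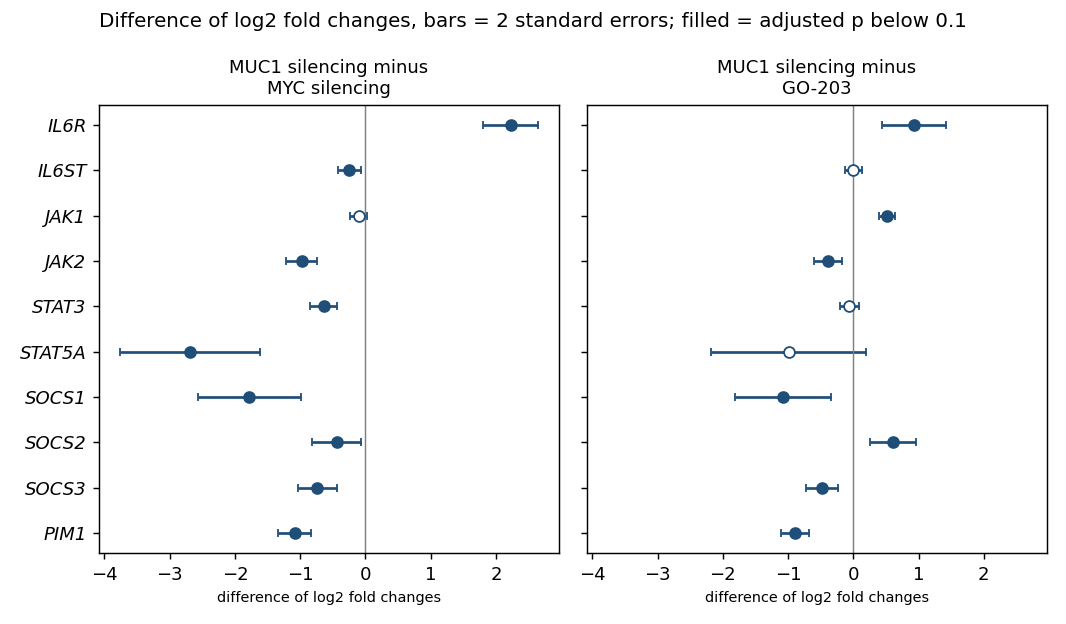
Difference of log2 fold changes (horizontal axis), MUC1 silencing minus MYC silencing on the left and MUC1 silencing minus GO-203 on the right; bars reach 2 standard errors and filled points have an adjusted p below 0.1. IL6R is the only gene right of 0 among the filled points on the left (2.22), and PIM1 is left of 0 in both panels (-1.08 and -0.89).

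Other genes of the pathway were counted in 5 lists of 57 genes, of which IL27 had no row. Where a list is said below to have none in a direction, it also had none at an unadjusted p below 0.05 and none by DESeq2, except for the other inhibitors with GO-203, where SOCS4 was higher at an unadjusted p below 0.05. The shares of all genes tested that were higher and lower, for reading these counts, were 32.0% and 31.7% for 3D against 2D, 30.7% and 31.6% for MUC1 silencing, 11.1% and 12.9% for GO-203 and 30.3% and 28.1% for MYC silencing. Of the gp130 cytokines, 3 of 6 tested were higher and none lower in 3D vs 2D cells by edgeR's test (median log2 0.81), and CTF1, CLCF1 and CNTF were not called (-0.27, 0.25 and 0.096). EBI3, 1 of the 3 higher, had 2 counts in each 2D library and passed the filter on low counts only through 3D cells, where it had 15 to 26. Without it 2 of 5 were higher and the median was 0.25. IL6, the ligand of IL6R, was at 2.90, 3.56 and 2.49 CPM in 2D cells and 8.08, 7.41 and 7.68 CPM in 3D cells (log2 1.43, SE 0.15, adjusted p = 4.7e-07), but its value was 0.18 (adjusted p = 0.403) with tet-MYCshRNA vehicle in place of 3D. GO-203 raised IL6 further, to 15.4, 16.2 and 16.6 CPM (log2 1.07, SE 0.094, adjusted p = 2.5e-08), and 3 of 6 cytokines were higher and none lower (median 0.46). On MUC1 silencing IL6 fell from 15.9, 19.1 and 16.3 CPM to 5.57, 7.05 and 4.75 CPM (log2 -1.56, SE 0.11, adjusted p = 2.5e-10), while 5 of 7 cytokines were higher and 1 lower (median 1.004). CTF1, which encodes cardiotrophin-1, had the largest rise there (log2 1.12, SE 0.10, adjusted p = 5.3e-09) and on MYC silencing (1.73, SE 0.16, adjusted p = 8.6e-06). On MYC silencing 3 of 6 cytokines were higher and 2 lower (median 0.24), and CNTF fell (log2 -0.56, SE 0.17, adjusted p = 0.019).

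Of the partner receptors of gp130, 3 of 5 were lower and none higher on MUC1 silencing by edgeR's test (median -0.44), beside 31.6% of all genes lower, and IL11RA and IL27RA were not called (adjusted p = 0.466 and 0.509). On MYC silencing 3 of 4 were higher and 1 lower (median 0.81), beside 30.3% and 28.1% of all genes. LIFR, the receptor chain for LIF, was at 211, 222 and 224 CPM with vehicle and 134, 135 and 123 CPM with DOX in the tet-MUC1shRNA line. This was a fall (log2 -0.76, SE 0.044, adjusted p = 5.7e-12), whereas in the tet-MYCshRNA line LIFR rose from 74.1, 78.2 and 77.7 CPM to 393, 326 and 368 CPM (log2 2.23, SE 0.085, adjusted p = 2.3e-08). IL27RA fell on MYC silencing (log2 -2.56, SE 0.18, adjusted p = 1.0e-06). In 3D vs 2D cells 2 of 5 were higher and 2 lower (median -0.040). Among those with a mean count of 100 or more, OSMR, the oncostatin M receptor chain, had the largest rise (log2 0.80, SE 0.052, adjusted p = 1.1e-09) and IL11RA the largest fall (-1.34, SE 0.14, adjusted p = 3.5e-07). CNTFR, the other gene counted as higher, had 2 to 8 counts per 2D library and 10 to 32 per 3D library, and it passed the filter only through 3D cells. Without it 1 of 4 was higher and 2 lower (median -0.50). On MUC1 silencing it passed only through the vehicle libraries (12 to 24 counts, against 0 to 6 with DOX), and without it 2 of 4 were lower (median -0.31). With GO-203 1 of 5 was higher, LIFR (log2 0.35, SE 0.059, adjusted p = 1.7e-04), and none lower (median 0.056). The number changed was 2 without GO-203 replicate 2.

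Among the other JAK kinases and STAT factors, MYC silencing raised 3 of 5 and lowered none by edgeR's test (0 at an unadjusted p below 0.05 and 0 by DESeq2; median 0.57). STAT2, which acts in interferon signalling, went from 16.0, 15.2 and 14.7 CPM to 47.7, 58.2 and 55.8 CPM (log2 1.798, SE 0.088, adjusted p = 1.1e-07). On MUC1 silencing 1 of 5 was higher and 3 lower (median -0.14). STAT2 fell (log2 -0.44, SE 0.063, adjusted p = 4.1e-06), and JAK3, the kinase of the common gamma chain receptors, fell from a mean of 2.04 to 0.59 CPM without overlap (log2 -1.83, SE 0.29, adjusted p = 1.5e-05). In 3D vs 2D cells 2 of 5 were higher and 1 lower (median 0.082). JAK3, 1 of the 2 higher, had 2 counts in each 2D library and 27 to 43 in the 3D libraries, through which alone it passed the filter, and without it 1 of 4 was higher and 1 lower (median 0.031). EBI3, CNTFR and JAK3 lie below the mean count of 100 and were named after their values were seen. STAT5B, the close paralog of STAT5A, rose (log2 0.86, SE 0.072, adjusted p = 2.6e-08). STAT2 fell (log2 -0.55, SE 0.078, adjusted p = 1.2e-05), but its value was 0.040 (adjusted p = 0.627) with tet-MUC1shRNA vehicle in place of 3D. With GO-203 1 of 6 was higher and 1 lower (median -0.072), and both calls were fragile, with 0 or 1 of the 6 changed when any 1 library was left out. The rise of STAT2 (log2 0.20, SE 0.077, adjusted p = 0.080) was lost without 3D replicate 1 or 2 or any of the 3 GO-203 replicates (adjusted p = 0.105 to 0.267) and without the low-count filter (0.172). The fall of TYK2 (log2 -0.18, SE 0.074, adjusted p = 0.09) was lost without 3D replicate 1 or 3 or GO-203 replicate 1 or 3.

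The other inhibitors, CISH, SOCS4 to SOCS7, PIAS proteins, phosphatases and SH2B3, moved both ways as a list. They counted 6 higher and 5 lower of 13 in 3D vs 2D cells (median 0.10), 4 and 6 of 13 on MUC1 silencing (-0.17), 0 and 4 of 13 with GO-203 (-0.075) and 4 and 3 of 12 on MYC silencing (-0.040). The 4 called with GO-203 were SOCS5, PIAS3, PIAS4 and SH2B3, and the count was 2 without 3D replicate 1, GO-203 replicate 2 or GO-203 replicate 3, and 3 on leaving out 1 of the other 3 libraries. SOCS6, which targets receptor kinases, fell in 3D vs 2D cells (log2 -0.83, SE 0.066, adjusted p = 1.5e-08) and rose on MUC1 silencing (0.54, SE 0.065, adjusted p = 4.1e-07). The phosphatase gene PTPN11 rose in 3D cells (log2 0.40, SE 0.056, adjusted p = 1.4e-05), and SOCS7 fell on MUC1 silencing (-0.45, SE 0.079, adjusted p = 4.6e-05). PTPN2, whose phosphatase removes phosphate from STAT factors, fell on MYC silencing (log2 -1.03, SE 0.095, adjusted p = 7.8e-06) while PIAS1 rose (0.36, SE 0.063, adjusted p = 7.5e-04). With GO-203 SH2B3 fell (log2 -0.30, SE 0.070, adjusted p = 0.0038).

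Of genes known as STAT3 targets, 15 of 22 were higher and 6 lower in 3D vs 2D cells, beside 32.0% and 31.7% of all genes. Their median on the log2 scale was 1.76, while STAT3 mRNA was lower there. SERPINA3, an acute-phase protease inhibitor, went from 0, 0.089 and 0.18 CPM to 6.32, 6.87 and 6.27 CPM. It had 0 to 10 counts per 2D library and passed the filter only through 3D cells, so its fitted change is not given, and without it 14 of 21 were higher and 6 lower (median 1.67). In tet-MYCshRNA vehicle mammospheres SERPINA3 was at 0.57, 0.53 and 0.42 CPM. The chemokine CCL2 fell (log2 -2.57, SE 0.16, adjusted p = 8.4e-10). On MUC1 silencing 11 of 21 were higher and 10 lower (median 0.13). VEGFA, the angiogenic growth factor, fell from 625, 488 and 522 CPM to 159, 182 and 163 CPM (log2 -1.71, SE 0.068, adjusted p = 1.2e-14), and MMP2 rose (0.78, SE 0.063, adjusted p = 1.1e-09). With GO-203 5 of 21 were higher and 7 lower (median 0.064). FOS rose (log2 1.18, SE 0.10, adjusted p = 1.9e-08) and CCND1, which encodes cyclin D1, fell (-0.89, SE 0.059, adjusted p = 2.9e-10). On MYC silencing 9 of 20 were higher and 6 lower (median 0.19). TIMP1 rose from 265, 243 and 221 CPM to 433, 727 and 711 CPM, where DOX replicate 1 stood apart (log2 1.34, SE 0.15, adjusted p = 4.1e-05). BIRC5, which encodes survivin, fell (log2 -1.07, SE 0.082, adjusted p = 2.2e-06). The list includes MYC, the target of a hairpin.

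**Figure D5:**
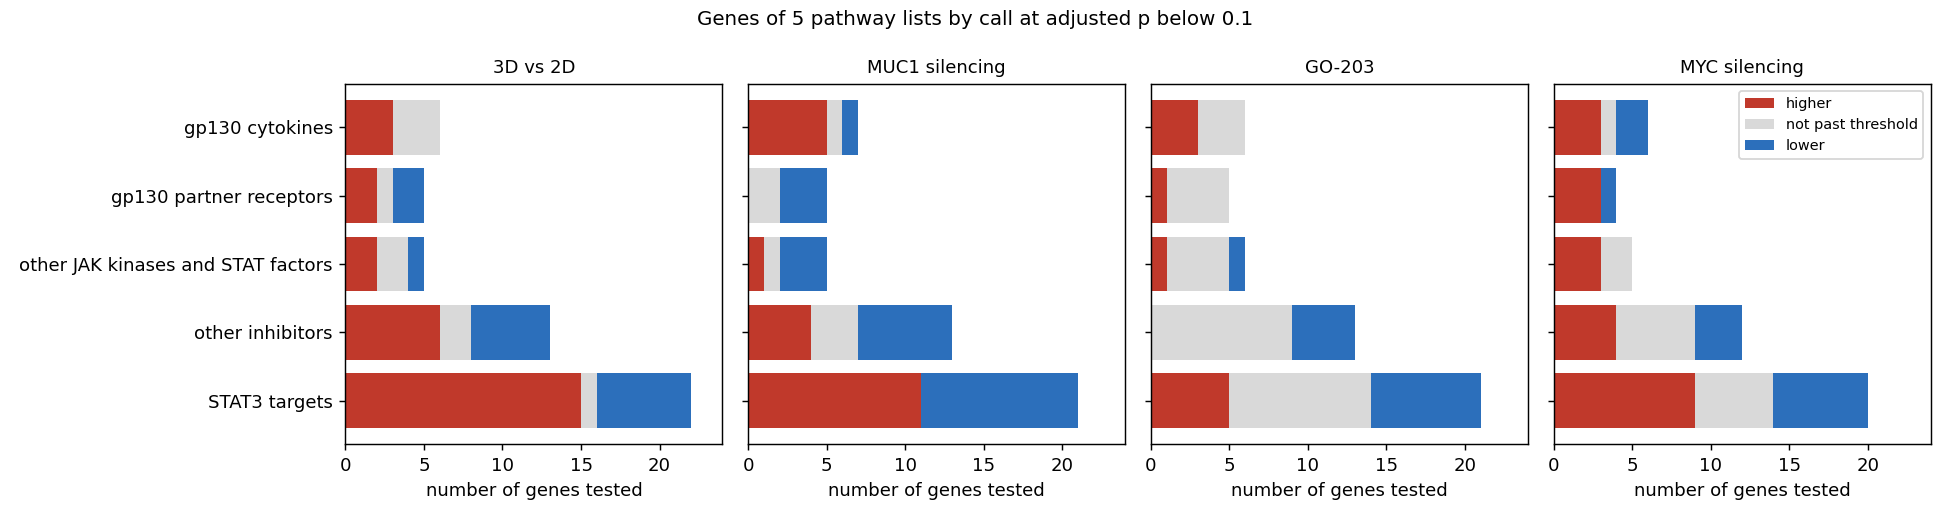
Number of genes (horizontal axis) of each of 5 pathway lists that were higher, lower or not past an adjusted p of 0.1 in each comparison. STAT3 targets were higher in 15 of 22 in 3D vs 2D cells (14 of 21 without SERPINA3), beside 32.0% of all genes tested. On MUC1 silencing they divided into 11 higher and 10 lower of 21, beside 30.7% and 31.6% of all genes.

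The genes whose group means were most like those of STAT3 over the 7 groups, by Pearson's r of log2(CPM + 0.5) among 12306 genes, were CELSR2 (0.985), SCP2 (0.980) and PLPP3 (0.979). For SOCS3 they were EDIL3 (0.973), APC2 (0.972) and PRUNE2 (0.972). These are the highest of many correlations over 7 points that share libraries and groups, and they are given as a description. The size of the changes differed widely within them: PLPP3 ran from 14.6 to 178 CPM and EDIL3 from 13.5 to 1073 CPM between the lowest and the highest group.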

How the data were processed

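Total RNA from BT-549 cells cultured in triplicate was sequenced by the authors as TruSeq stranded paired-end mRNA libraries. They aligned reads to GRCh38 with STAR (2.7.3a in the submitters' processing notes, where the study's methods name another release) and counted them with featureCounts. The authors deposited the unnormalized counts of 42339 genes. The annotation release, strand setting and handling of multi-mapped reads are not given in the sources used here. Cells without a value (4952 to 7587 genes per library) were read as 0. GENCODE 44 gave symbols (42252 genes), positions and exon lengths.

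The 6 libraries of each of the 4 comparisons entered a separate fit with edgeR 4.0.16 (R 4.3.3): filterByExpr, TMM factors, glmQLFit and glmQLFTest, with Benjamini-Hochberg adjustment over all genes tested and a threshold of 0.1. Differences between effects were interaction contrasts over 12 libraries. Standard errors are the log2 fold change divided by the square root of F. The scripts were tested on simulated counts. Totals of 38026597 to 99751717 counts make counting error small except for STAT5A, SOCS1 and, in some groups, IL6R. IL6R had 90, 111 and 96 counts in 3D cells and 98, 74 and 98 with GO-203. Alternatives were DESeq2 1.42.0, RLE or library size scaling, other low-count filters, other thresholds, a fit of all 21 libraries, a replicate block, other mammospheres for 3D, and leaving out each library. Replicate libraries differed beyond sampling noise (chi-square per degree of freedom 5.33 to 80.4 over 21 pairs). In the tet-MYCshRNA line, DOX replicate 1 was the lowest DOX library for STAT3, STAT5A, SOCS1, SOCS3 and PIM1. It was the highest for IL6ST, JAK2 and SOCS2, and lay between the others for JAK1 and IL6R.

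The members, gene lists and tests were chosen with earlier results of these data known. Named list genes are those with the largest rise and the largest fall per list and comparison among changed genes with no overlap between groups, at a mean count of 100 or more. List counts were repeated without genes whose libraries in either group all lay below the filter's CPM minimum, a choice made after seeing the data. For STAT3 and SOCS3 the 3 genes with the most similar group means, with the same minimum count, are named, and MUC1 and MYC are named as targets. Some listed genes and sequences are not reported here.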

Additional observations from a re-analysis of the deposited data

Results flagged for a closer look

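The following members had effects that differed between contrasts, tested as an interaction in edgeR with an adjusted p below 0.1. Values are differences of log2 fold changes. For MUC1 silencing minus MYC silencing they were 2.22 for IL6R, -0.24 for IL6ST, -0.98 for JAK2, -0.64 for STAT3, -2.69 for STAT5A, -1.78 for SOCS1, -0.44 for SOCS2, -0.74 for SOCS3 and -1.08 for PIM1. For MUC1 silencing minus GO-203 they were 0.93 for IL6R, 0.51 for JAK1, -0.38 for JAK2, -1.08 for SOCS1, 0.60 for SOCS2, -0.48 for SOCS3 and -0.89 for PIM1. Such differences were common among all genes tested, at 52.9% and 44.9%.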

How the results depend on the processing

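Counting error limits STAT5A and SOCS1, and also IL6R in the 3D and GO-203 libraries. No alternative separates DOX from silencing, or line from passage. Scaling by library size alone moved the median of all genes by 0.17 on MUC1 silencing, 0.20 in its difference from MYC silencing and 0.15 in its difference from GO-203. It turned the sign of JAK2 (to 0.0050) and SOCS3 (0.11) on MUC1 silencing, of JAK1 between MUC1 and MYC silencing (0.10) and of STAT3 between MUC1 silencing and GO-203 (0.096). Relative to the shifted median, the JAK2 and SOCS3 values were -0.18 and -0.076. RLE scaling changed no member's call. With tet-MUC1shRNA vehicle in place of 3D, IL6R, JAK1, STAT5A and, of the list genes named by the rule, STAT2 turned sign against 2D cells (0.094, -0.26, 1.16 and 0.040), and with tet-MYCshRNA vehicle IL6R, JAK1, SOCS1, SOCS2 and PIM1 did (2.06, -0.012, -1.16, -0.77 and -0.39). Leaving out single libraries gave log2 values between -0.35 and 0.084 for STAT5A in 3D vs 2D cells, -0.13 and 0.018 for SOCS3 on MUC1 silencing, -0.057 and 0.23 for IL6R with GO-203, and -0.024 and 0.035 for IL6ST and -0.11 and 0.0023 for STAT3 between MUC1 silencing and GO-203. In the comparisons as reported, none of the values that turned had been called except those of IL6R, SOCS2, PIM1 and STAT2 against 2D cells and JAK2 on MUC1 silencing. The members changed then numbered 7 to 8 in 3D vs 2D cells, 5 to 8 on MUC1 silencing, 4 to 6 with GO-203, 10 on MYC silencing in every case, 8 to 9 between MUC1 and MYC silencing and 7 to 8 between MUC1 silencing and GO-203. With an absolute log2 fold change above 1.5 as well they numbered 1, 0, 0 and 1 in the 4 comparisons. Replicate numbers gave no consistent sign of pairing: deviations of same-numbered libraries correlated between -0.53 and 0.35, and not above 0.1 in every pair of any comparison. With GO-203 the correlations were 0.35, -0.03 and 0.21. Such values cannot show that the samples were unpaired. Fits with the replicate block changed 7, 7, 6 and 10 members in the 4 comparisons, where the fits without it changed 7, 7, 5 and 10. SOCS1 with GO-203 was the member gained (log2 0.58, adjusted p = 0.0737).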
